A study of Mus musculus with 2 samples.

Results

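The 7 genes described here, Ccl2, Ccl7, Ccl8, Ccl12, Ccl6, Ccl9 and Ccl24, encode CC chemokines and were chosen by name among the 17232 genes of a single-cell RNA table of CD45+ cells from mouse melanomas. All 7 had a row in the table and at least 100 UMIs (unique molecular identifiers, each the mark of 1 captured RNA molecule) in the macrophage-like cells of both libraries together. The mice carried B16-OVA tumors, a C57BL/6 melanoma line that makes ovalbumin, placed under the skin. One library, labelled WT, came from C57BL/6J mice. The other, labelled KO, came from mice with a hypomorphic Maoa allele, Maoa tm1Shih, on the C57BL/6J background. The methods give adult females of 8 to 12 weeks as the rule for the study's mice. Neither group was treated, tumors were taken on day 14, and 10 tumors per genotype were combined before living CD45.2+ cells were sorted, so that each genotype has 1 library and no replicate. The allele was present in every cell of the host, while the tumor cells kept Maoa.

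Chemokines are small secreted proteins that draw leukocytes along a gradient by binding receptors of the G protein-coupled class, and CC chemokines share adjacent cysteines near their N-terminus. In mice Ccl2, Ccl7 and Ccl12 bind Ccr2 and bring Ly6C-high monocytes out of the bone marrow and into inflamed or tumor tissue, where these cells mature into macrophages that make the same chemokines. Ccl8 is a close relative whose mouse form acts on Ccr8, Ccl6 and Ccl9 are Ccr1 ligands made by myeloid cells, and Ccl24 (eotaxin-2) is a Ccr3 ligand known for drawing eosinophils.

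The genes other than Ccl24 lie on chromosome 11, in the mouse build GRCm38, in 2 groups on either side of a gap of 1220087 bases between Ccl1 and Ccl5. On the plus strand follow Ccl2 at chr11:82035571-82037453, Ccl7 at chr11:82045712-82047525, Ccl12 at chr11:82101845-82103400 and Ccl8 at chr11:82115185-82116799. Ccl9 at chr11:83572919-83578636 and Ccl6 at chr11:83587882-83593087 are neighbours on the minus strand. Ccl24 stands apart at chr5:135569937-135573049, minus strand. The gaps between neighbours were 8258 bases for Ccl2 and Ccl7, 11784 for Ccl12 and Ccl8, and 9245 for Ccl9 and Ccl6, and the level of these pairs in the same cell is described further on.

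Promoters of 4 members are printed because the paired genes Ccl6 and Ccl9, and Ccl8 and Ccl12, can be set beside each other in them. Each is 300 bases of RefSeq sequence (GRCm38.p6), 250 before and 50 after the gene's start, read 5′ to 3′ on the gene's strand, with capitals on the matches to the motifs searched. Windows for Ccl2, Ccl7 and Ccl24 were not used here.
Ccl8, chr11:82114935-82115234, plus strand: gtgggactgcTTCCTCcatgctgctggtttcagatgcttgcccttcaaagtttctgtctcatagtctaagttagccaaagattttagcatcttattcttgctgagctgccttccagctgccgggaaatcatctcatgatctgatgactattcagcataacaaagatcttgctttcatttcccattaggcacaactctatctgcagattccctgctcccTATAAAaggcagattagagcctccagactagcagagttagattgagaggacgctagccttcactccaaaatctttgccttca
Ccl12, chr11:82101595-82101894, plus strand: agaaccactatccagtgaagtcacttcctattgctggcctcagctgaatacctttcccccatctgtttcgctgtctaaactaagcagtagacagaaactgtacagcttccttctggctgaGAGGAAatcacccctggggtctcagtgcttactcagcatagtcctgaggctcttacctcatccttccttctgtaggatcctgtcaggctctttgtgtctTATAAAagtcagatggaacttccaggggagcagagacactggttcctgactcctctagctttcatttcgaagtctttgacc
Ccl6, chr11:83593038-83593337, minus strand: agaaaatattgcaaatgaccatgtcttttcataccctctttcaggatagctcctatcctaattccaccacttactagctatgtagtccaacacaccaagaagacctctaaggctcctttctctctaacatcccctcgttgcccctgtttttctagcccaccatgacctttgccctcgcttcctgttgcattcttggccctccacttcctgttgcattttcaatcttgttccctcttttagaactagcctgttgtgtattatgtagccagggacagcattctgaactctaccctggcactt
Ccl9, chr11:83578587-83578886, minus strand: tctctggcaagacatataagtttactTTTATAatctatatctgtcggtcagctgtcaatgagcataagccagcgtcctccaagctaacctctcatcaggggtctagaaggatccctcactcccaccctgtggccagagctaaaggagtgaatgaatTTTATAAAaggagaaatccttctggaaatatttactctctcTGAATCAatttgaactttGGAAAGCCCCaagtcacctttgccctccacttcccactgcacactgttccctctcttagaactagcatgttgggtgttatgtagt

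The letters of 7 motifs were searched on both strands in these windows and in the same window of 32851 mouse promoters. TATAAA, the TATA box, began 32 bases before the start of Ccl8 and 31 before that of Ccl12. It is found in 13.6% of all promoters. Ccl9 held it on either strand at 92, 94 and 224 bases before its start, the first 2 overlapping, while the Ccl6 window held none of the motifs. The AP-1 motif TGANTCA (7.81% of promoters) matched Ccl9 53 bases before its start, and the kappa-B consensus (8.46%) matched it at 35. GAGGAA, a core bound by ETS factors such as PU.1 (28.3%), matched Ccl8 and Ccl12 once each. The GAS motif TTCNNNGAA (8.3%), its STAT6 form with 1 more base between the arms (6.95%) and the C/EBP motif TTGCNNAA (10.8%) matched none of the 4. Of aligned bases 71.1% were identical between Ccl6 and Ccl9, against 57.0% to 65.8% in the other 5 pairs. These matches describe the letters of the windows only.

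There were 2392 cells with 28801253 UMIs in all for the label WT and 2630 with 23702018 for the label KO, and the median cell held 9888 and 6946 UMIs. Maoa itself gave 7 UMIs in the library labelled WT and 15 in that labelled KO (2 and 8 in macrophage-like cells), a difference that goes against the labels. A 3′ tag may lie outside the changed part of the allele, in which case Maoa checks nothing. The libraries are therefore called by their labels, and the direction of every difference between them rests on those labels. The 2 libraries shared 13 barcode sequences.

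Clusters were made without the members and their receptors, so that the members' own levels did not shape them, while other chemokine genes stayed in. They are named by their leading genes and called after a cell type only as "-like". Macrophage-like cells (574 in the library labelled WT and 478 in that labelled KO) fell into 4 clusters. The first was led by Qpct, Lpl and Dok2 (175 and 218 cells). The second, called here the C1q cluster, was led by Gas6 and Igf1 and had the C1q genes of resident-type macrophages at a high level, with C1qa at 3349 and 3816 CPM, counts per 1000000 UMIs (140 and 132 cells). The third was led by the chemokine gene Cxcl3 and by Thbs1, which encodes thrombospondin-1 (161 and 33 cells), and the last by the heat shock genes Hspa1a and Hspa1b (98 and 95 cells). Monocyte-like cells (336 and 338) fell into clusters led by Hp and Cd177 (111 and 197), by the interferon-induced genes Rsad2 and Ifit3b (139 and 51), and by Ace and Adgre4, of nonclassical monocytes (86 and 90). Dendritic cell (DC)-like cells (108 and 238) were cDC2-like, cDC1-like and mature DC-like. The names of the Qpct and Rsad2 clusters each held in 3 of 8 other clusterings, in which Qpct cells were mostly called monocyte-like and Rsad2 cells mostly macrophage-like under the name of the Cxcl3 cluster. Members are therefore described first by cluster and then by class.

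Levels are sums of UMIs over the cells of a cluster in 1 library, as CPM of all UMIs in those cells. Their 95% intervals, exact Poisson for levels, exact binomial for shares of cells and a conditional binomial for ratios, cover counting error only and not the spread between mice, which 1 library per genotype cannot show. No test between the libraries was possible. The reads are tags from 3′ ends, and levels are compared between cell groups and libraries, not between genes.

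Ccl2, the main monocyte attractant of the group, was highest in the Cxcl3 cluster of both libraries, at 5763 CPM in the library labelled WT and 4065 in that labelled KO. The Qpct cluster followed with 3385 and 2224, and neither interval overlapped the next in order. In the C1q cluster Ccl2 was at 2429 and 1982 CPM, and in the Rsad2 cluster at 2719 and 1761. The order of these last clusters was exchanged between the libraries. The heat shock cluster stood lower, at 960 and 886, and the nonclassical monocyte-like cluster at 257 and 433. Ccl2 was therefore spread over every macrophage-like cluster and was not the product of one of them.

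Between the libraries, Ccl2 was lower in that labelled KO in each of the 4 macrophage-like clusters, by amounts from -0.12 (interval -0.26 to 0.03) on the log2 scale in the heat shock cluster to -0.61 (-0.66 to -0.56) in the Qpct cluster. The interval of the heat shock cluster included 0. Over the macrophage-like class Ccl2 was at 3337 CPM in the library labelled WT and 2046 in that labelled KO, a log2 ratio of -0.71 (-0.74 to -0.67). This class ratio lay beyond each of the cluster ratios, since the Cxcl3 cluster, highest for Ccl2, gave 161 of the 574 cells labelled WT and 33 of the 478 labelled KO. With the 4 clusters weighted alike in both libraries it was -0.46. At least 1 Ccl2 UMI was found in 89.0% and 77.6% of these cells, with median depths of 11090 and 10390 UMIs. At an equal 6100 UMIs per cell, reached by all but 46 and 55 of the cells, they became 85.4% (82.1 to 88.3) and 75.2% (70.8 to 79.2). The lower level in the library labelled KO was thus accompanied by fewer cells with any Ccl2, and these intervals did not overlap. Cells with Ccl2 also held fewer of its UMIs, at a mean of 49.9 per positive cell labelled WT and 33.4 labelled KO before thinning.

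**Figure D1:**
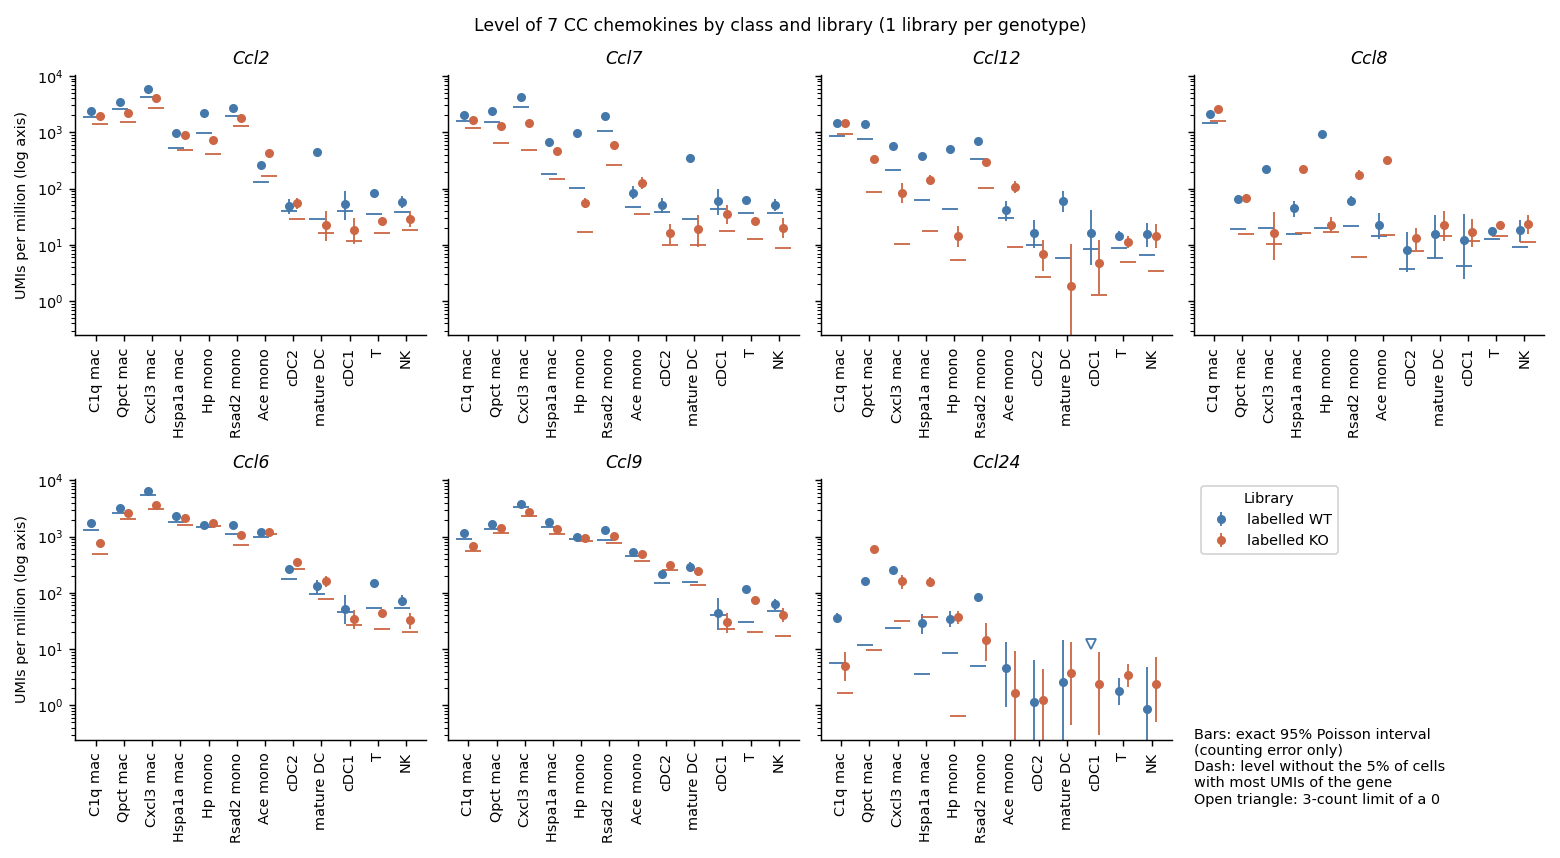
CPM of each of the 7 chemokines (vertical axis, log scale) in each myeloid cluster and in T-like and NK-like cells of the library labelled WT and that labelled KO. Bars are exact 95% Poisson intervals (counting error only), dashes the level without the 5% of cells with most UMIs of the gene, and the open triangle the limit of 3 counts for a 0. Each gene is highest in a macrophage-like cluster, as Ccl2 is in the Cxcl3 cluster (5763 and 4065), and T-like and NK-like cells lie far below.

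Ccl7, a second Ccr2 ligand and the neighbour of Ccl2, had a like order in the library labelled WT, with 4206 CPM in the Cxcl3 cluster, 2355 in the Qpct cluster, 2023 in the C1q cluster and 1980 in the Rsad2 cluster. In the library labelled KO the same clusters were at 1452, 1282, 1634 and 589. The C1q cluster came first there, with an interval that overlapped that of the Cxcl3 cluster. The log2 ratio was -1.53 (-1.68 to -1.40) in the Cxcl3 cluster and -1.75 (-1.92 to -1.58) in the Rsad2 cluster, but -0.31 (-0.37 to -0.25) in the C1q cluster. The difference between the libraries was therefore larger in the Cxcl3 and Rsad2 clusters than in the C1q cluster, and that contrast between clusters was not tested.

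Because a few cells can carry such sums, each ratio was computed again without the 5% of cells with most UMIs of the gene in each cluster and library. Ccl7 was then at -2.54 in the Cxcl3 cluster, -2.01 in the Rsad2 cluster and -0.40 in the C1q cluster, so its difference did not rest on the cells with most Ccl7. The KO side of the Cxcl3 value rests on 33 cells. In the macrophage-like class, Ccl7 was at 2476 and 1336 CPM, a log2 ratio of -0.89 (-0.93 to -0.85), and at -0.79 with the clusters weighted alike. It was found in 78.1% and 58.8% of cells, and in 72.9% (68.9 to 76.7) and 54.6% (49.7 to 59.4) after thinning.

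**Figure D2:**
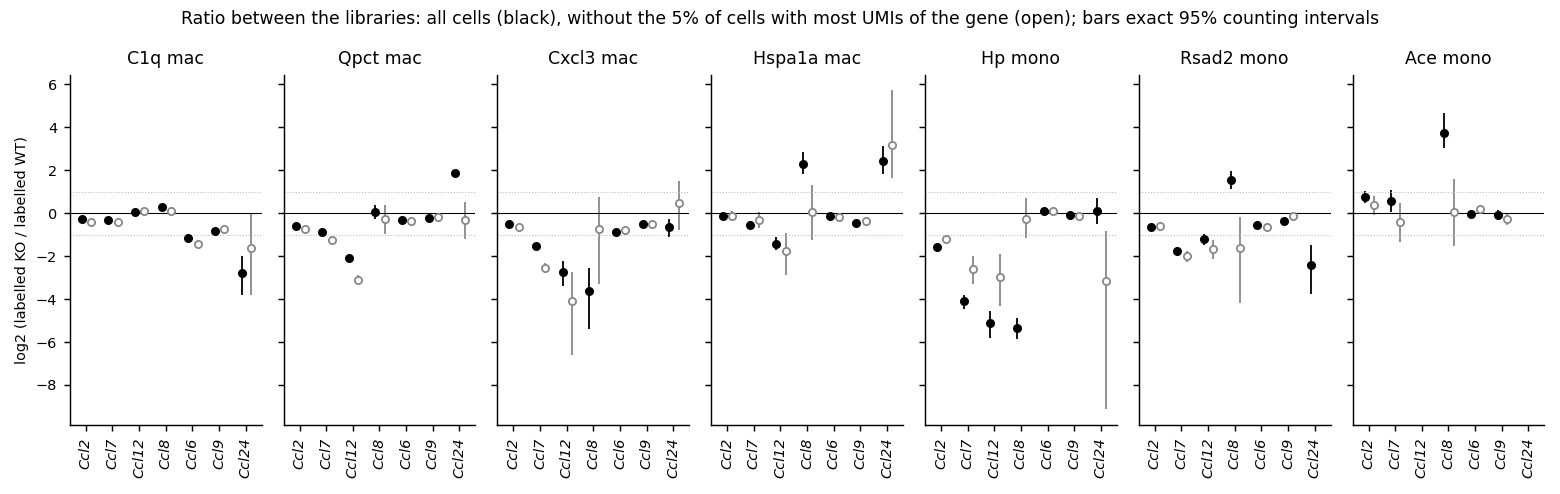
log2 ratio of CPM in the library labelled KO over that labelled WT (vertical axis) for each chemokine in each macrophage-like and monocyte-like cluster, with 95% conditional intervals. Filled points use all cells, open points leave out the 5% of cells with most UMIs of the gene, and genes under 100 UMIs in a cluster and open points with 0 UMIs in a library are not drawn. Ccl7 and Ccl12 lie below 0 in the Rsad2 cluster either way, while the Ccl24 point of the Qpct cluster goes from 1.87 to -0.31.

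In monocyte-like cells as a class the ratio of both genes was further from 0 than in macrophage-like cells, an order that turned with other clusterings. At resolution 0.4 Ccl2 was at -1.12 in macrophage-like and -0.55 in monocyte-like cells and Ccl7 at -1.71 and -0.99, without depth regression the order turned for both as well, and with the members kept as variable genes it turned for Ccl2 (-0.82 and -0.71). Ccl2 was at 2036 CPM in the library labelled WT and 872 in that labelled KO, a log2 ratio of -1.22 (-1.29 to -1.16), and at -1.19 without the top 5% of cells. Ccl7 was at 1251 and 177 CPM, a log2 ratio of -2.82 (-2.96 to -2.68), and at -3.69 without them. A Ccl7 UMI was found in 48.8% and 24.3% of monocyte-like cells, and after thinning to 5300 UMIs (28 and 37 cells left out) in 44.8% (39.2 to 50.5) and 17.6% (13.5 to 22.4). The Ccl2 shares after thinning, 68.8% (63.3 to 74.0) and 61.1% (55.4 to 66.7), overlapped.

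The C1q genes moved with these monocyte-like values. C1qa, C1qb and C1qc were themselves lower in the KO-labelled monocyte-like cells, with ratios of -1.52, -1.29 and -1.38. Apoe went the other way in the same cells, at 794 CPM in the library labelled WT and 1511 in that labelled KO, a log2 ratio of 0.93. All 16 of the macrophage markers had at least 1 UMI in monocyte-like cells of both libraries, as they had in T-like cells labelled WT. Their sum in monocyte-like cells was 6096 and 4487 CPM. Without the monocyte-like cells with at least 20 C1q UMIs, the ratios were -1.05 for Ccl2 and -2.58 for Ccl7. The mix of clusters differed as well, the Rsad2 cluster giving 139 of 336 and 51 of 338 cells. Within that cluster Ccl2 was at -0.63 (-0.73 to -0.53) and Ccl7 at the -1.75 given above. In the Hp cluster Ccl2 was at -1.56 (-1.66 to -1.46), with 751 of its 2611 UMIs labelled WT in 1 cell that held T cell and myeloid genes, and at -0.75 (-0.87 to -0.63) without C1q-rich cells. Ccl7 there was at -4.11 (-4.45 to -3.81), with 503 of 1187 UMIs labelled WT in 1 such cell, and at -1.28 (-1.68 to -0.88) without C1q-rich cells. The nonclassical cluster went the other way, with Ccl2 at 0.75 (0.47 to 1.04) and Ccl7 at 0.58 (0.07 to 1.10), and at 0.37 and -0.41 without the top 5% of cells.

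Ccl12, the third Ccr2 ligand, was high in 2 clusters of the library labelled WT, at 1443 CPM in the C1q cluster and 1409 in the Qpct cluster, whose intervals overlapped. In the library labelled KO it was at 1487 in the C1q cluster but at 330 in the Qpct cluster. The C1q cluster therefore had nearly equal Ccl12 in both, with a log2 ratio of 0.04 (-0.02 to 0.11), while the Qpct cluster had -2.09 (-2.21 to -1.98). Without the top 5% of cells these ratios were 0.12 and -3.10. In the Qpct cluster Ccl12 was found in 54.0% (46.0 to 61.8) of cells labelled WT and 25.4% (19.4 to 32.1) labelled KO at 6900 UMIs per cell, and in the C1q cluster in 69.4% (60.4 to 77.5) and 70.4% (61.6 to 78.2). The shares split the 2 clusters in the same way as the levels.

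C1q also differed in the Qpct cluster, where C1qa was at 1090 and 629 CPM. Without its cells of at least 20 C1q UMIs, the Ccl12 ratio in that cluster was -2.31 (-2.47 to -2.15), so the difference was as large without them. Ccl12 was also lower in the library labelled KO in the Cxcl3 cluster, at 579 and 84.6 CPM, and in the Rsad2 cluster, at 701 and 302 CPM. Without cells of at least 20 C1q UMIs, its log2 ratio went from -2.75 to -1.77 (-2.43 to -1.23) in the Cxcl3 cluster. In the Rsad2 cluster it went from -1.21 to -2.52 (-3.06 to -2.05). The KO side of the Cxcl3 value was 26 UMIs, 19 of them in 1 cell. Over the macrophage-like class Ccl12 was at 1107 and 780 CPM, a log2 ratio of -0.51 (-0.56 to -0.45), which ran from -2.77 to 0.29 with other settings. In monocyte-like cells as a class it was at 501 and 91.9 CPM, a log2 ratio of -2.44 (-2.64 to -2.25), with a UMI in 31.5% (26.3 to 37.0) and 10.96% (7.67 to 15.1) of cells after thinning.

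Ccl8 was by contrast a gene of C1q-rich cells. The C1q cluster was at 2078 CPM in the library labelled WT and 2552 in that labelled KO, and held 68.3% and 87.3% of all Ccl8 UMIs of each library. Its log2 ratio was 0.30 (0.24 to 0.35), and 0.11 (0.04 to 0.17) without the top 5% of cells. The Qpct cluster was at 66.0 and 68.2 CPM, 0.05 (-0.27 to 0.37). Ccl8 was thus not lower in the library labelled KO in the cluster where its level was highest. Over the macrophage-like class it was at 751 and 1128 CPM, a log2 ratio of 0.59 (0.54 to 0.64), or 0.26 with the clusters weighted alike, with a UMI in 27.5% (23.7 to 31.5) and 29.8% (25.5 to 34.4) of cells after thinning. That class ratio lay between -2.59 and 0.97 with other settings of the clustering.

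Across all cells of a library, whatever their cluster, those with at least 20 C1q UMIs were 12.4% and 8.10% of cells and held 19.2% and 16.4% of all UMIs. They held 92.6% and 93.4% of Ccl8 UMIs, 71.4% and 86.2% of Ccl12, and 57.6% and 59.5% of Ccl7. For Ccl2 the shares were 46.1% and 46.0%, for Ccl6 37.5% and 29.2%, for Ccl9 34.7% and 27.9%, and for Ccl24 30.9% and 30.8%. The members therefore ran from Ccl8, almost all of it in C1q-rich cells, through Ccl12, Ccl7 and Ccl2, in the same order in both libraries, to the other 3, whose shares were lower still. C1q took no part in choosing the members.

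In several clusters other than the C1q cluster, 1 cell held most of the Ccl8 UMIs, although in the Qpct cluster of the library labelled WT the top cell held 30 of 165. The Hp cluster of the library labelled WT was at 941 CPM against 22.9 in that labelled KO, but 802 of its 1138 Ccl8 UMIs came from 1 cell. That cell held 829 C1q UMIs where the cluster's median was 1, and 68063 UMIs in all, with T cell and myeloid genes together. The same cell led the cluster for Ccl2, with 751 UMIs, and for Ccl12, with 286. In the nonclassical monocyte-like cluster the case was mirrored, since 180 of 193 Ccl8 UMIs in the library labelled KO came from 1 cell with 284 C1q UMIs. Monocyte-like Ccl8 was at 368 and 118 CPM, a log2 ratio of -1.64 (-1.82 to -1.46), but at -0.36 (-1.0 to 0.26) without the top 5% of cells. It was at 1.53 without cells that held both T and myeloid genes. The thinned shares, 12.3% (8.88 to 16.5) and 11.3% (7.95 to 15.4), overlapped, so no direction is drawn for Ccl8 in monocyte-like cells.

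**Figure D3:**
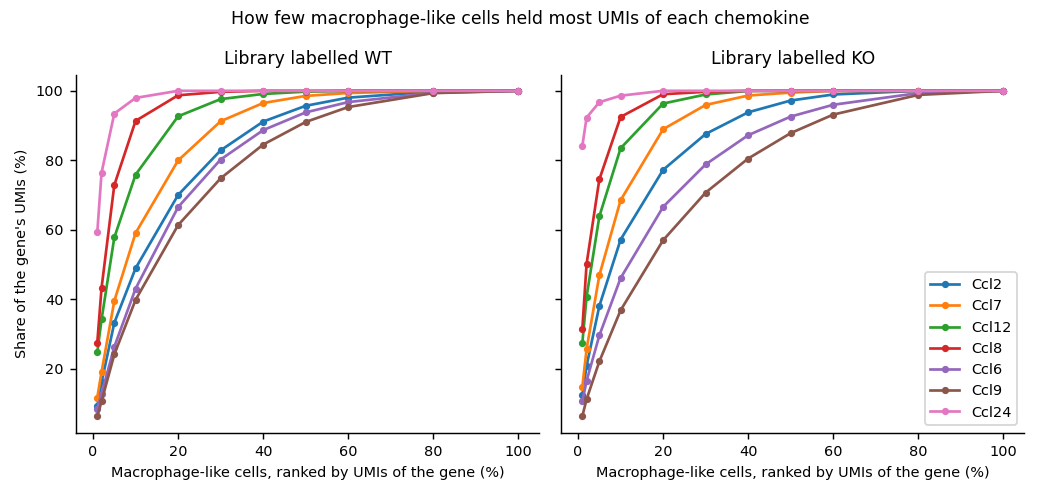
Share of a chemokine's UMIs (vertical axis, %) held by the macrophage-like cells ranked from most to fewest UMIs of that gene (horizontal axis, % of cells), 1 panel per library. The Ccl24 and Ccl8 lines rise fastest and the Ccl6 and Ccl9 lines slowest: 50% of Ccl24 UMIs lay in 5 and 2 cells, and 50% of Ccl9 UMIs in 81 and 78.

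Ccl6 and Ccl9, the Ccr1 ligands, were found in nearly every macrophage-like cell. A Ccl6 UMI was present in 94.8% and 91.8% of them and a Ccl9 UMI in 92.7% and 91.8%. After thinning these were 91.1% and 86.8% for Ccl6, and 88.5% and 87.7% for Ccl9. Both genes were highest in the Cxcl3 cluster, Ccl6 at 6543 and 3610 CPM and Ccl9 at 3800 and 2695. Both were also well above T-like and NK-like cells in DC-like cells in the library labelled KO, at 229 and 222 CPM. In the library labelled WT the DC-like levels, 195 and 208 CPM, were nearer to the T-like ones of 148 and 119.

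In the macrophage-like class Ccl6 was at 3409 and 1843 CPM, a log2 ratio of -0.89 (-0.92 to -0.86), and Ccl9 at 2015 and 1166, a ratio of -0.79 (-0.83 to -0.75). Among the 4 clusters the libraries differed most in the C1q cluster, with Ccl6 at 1710 and 772 CPM (-1.15, interval -1.23 to -1.07) and Ccl9 at 1169 and 668 (-0.81, -0.90 to -0.72). In the Qpct cluster they were at -0.31 and -0.21. The C1q cluster was thus the one in which Ccl12 and Ccl8 were near 0 or above it and Ccl6 was lowest against the library labelled WT. For Ccl6 without the top 5% of cells the C1q value was -1.44 (-1.55 to -1.35).

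Part of the class ratio followed the mix of clusters, since the Cxcl3 cluster, highest for both genes, gave 161 of 574 cells labelled WT and 33 of 478 labelled KO. With the 4 clusters weighted alike in both libraries, the ratios were -0.59 for Ccl6 and -0.45 for Ccl9. In monocyte-like cells Ccl6 was at 1519 and 1481 CPM, a ratio of -0.04 (-0.10 to 0.02). The Hp cluster had a Ccl6 UMI in 98.2% and 100% of its cells. Ccl9 in monocyte-like cells was at 1041 and 856 CPM, -0.28 (-0.36 to -0.21), and in the Hp cluster at 1001 and 933 CPM, -0.10 (-0.21 to 0.01). The Rsad2 cluster differed more, with Ccl6 at -0.53 (-0.67 to -0.41) and Ccl9 at -0.34 (-0.48 to -0.21). These ratios were smaller in size than the monocyte-like ratios of Ccl7 and Ccl12, a contrast between genes that was not tested.

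Ccl24 was concentrated in very few cells. It had 975 UMIs in the macrophage-like cells of the library labelled WT and 1646 in those labelled KO, or 128 and 272 CPM. Of the KO sum, 3 cells held 497, 461 and 260 UMIs, and 2 cells held 50% of all. The log2 ratio was 1.09 (0.98 to 1.21) with all cells, but 0.07 (-0.48 to 0.61) without the 5% with most Ccl24 and -1.11 with the Qpct cluster counted as monocyte-like. The share of macrophage-like cells with a UMI was 13.4% (10.7 to 16.5) and 14.9% (11.8 to 18.4), and after thinning 9.09% (6.78 to 11.9) and 9.93% (7.25 to 13.2).

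The same held in the Qpct cluster, where Ccl24 was at 164 and 601 CPM (1.87, interval 1.71 to 2.03) with all cells and at -0.31 (-1.19 to 0.54) without the top 5%. Cells with 10 or more UMIs numbered 7 of 175 and 8 of 218 there. The heat shock cluster differed in this respect. Its Ccl24 was at 28.8 and 159 CPM, 2.44 (1.84 to 3.14), and at 3.16 (1.66 to 5.72) without the top 5%. The share of its cells with a UMI was 8.16% (3.59 to 15.5) and 23.2% (15.1 to 32.9), and after thinning to 4600 UMIs 6.59% (2.46 to 13.8) and 17.1% (9.66 to 27.0). The intervals of both pairs of shares overlapped. In the C1q cluster the ratio was the other way, 36.4 and 5.11 CPM.

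Set against all genes of at least 100 UMIs, the members were counted past 2-fold in each class, in which 1.39% of macrophage-like genes were at least 2-fold lower and 0.629% at least 2-fold higher in the library labelled KO. Of the 7 members, 0 were 2-fold lower in macrophage-like cells and 1, Ccl24, was higher. The members' median log2 ratio there was -0.71, against 0.07 over 7318 genes. In monocyte-like cells 3.65% of genes were 2-fold lower and 1.07% higher, and 5 of the 7 members, Ccl2, Ccl7, Ccl8, Ccl12 and Ccl24, were lower and 0 higher. The median was -1.22 against 0.02 over 5145 genes. Of these 5, Ccl8 rests on the single cells described above. For Ccl24, 1 cell held 93 of the 125 UMIs of the Rsad2 cluster labelled WT and another 40 of the 60 of the Hp cluster labelled KO, and the class is at 0 Ccl24 UMIs in the library labelled KO without its top 5% of cells. The number of members past 2-fold lower ran from 0 to 4 in macrophage-like cells and from 2 to 5 in monocyte-like cells with other settings, Ccl12 being lower by that much in monocyte-like cells in each of 17.

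DC-like cells held little of these genes. Of 4230 genes of at least 100 UMIs, 2.2% were 2-fold lower and 0.496% higher in the library labelled KO, and of the 4 members with that many UMIs, 2 were lower (Ccl2 and Ccl7) and 0 higher. Ccl2 was at 150 and 38.6 CPM and Ccl7 at 129 and 21.8. In the mature DC-like cluster 157 of 169 Ccl2 UMIs and 122 of 134 Ccl7 UMIs of the library labelled WT came from 1 cell with 54 C1q UMIs. Without DC-like cells of at least 20 C1q UMIs, the class ratio was -0.24 (-0.68 to 0.23) for Ccl2 and -1.18 (-1.69 to -0.67) for Ccl7.

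T cells and NK cells are not known as main sources of these chemokines and serve as the reference for signal outside myeloid cells. T-like cells (576 and 696, median depths 8830 and 4892, with 262 and 112 of them in a cluster led by cell cycle genes in which 79.8% and 76.8% held both T cell and myeloid genes) had the members at 1.29% to 6.28% of their macrophage-like level, and the 3 C1q genes, which T cells lack, at 1.43% to 2.37%. Without the 5% of T-like cells with most UMIs of each gene, the members other than Ccl24 were at 0.640% to 1.72% and Ccl24 was at 0 UMIs. The C1q genes, counted the same way, were at 0.647% to 1.32%, so the ranges of members and C1q genes overlapped. Ccl9, at 5.93% and 6.28%, came to 1.51% and 1.70%. A Ccl2 UMI was found in 38.7% and 16.4% of T-like cells, and in 16.2% (13.2 to 19.4) and 7.76% (5.73 to 10.2) at 3500 UMIs per cell, where 0 and 103 cells were left out.

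These shares limit what a single UMI can show in a monocyte-like or DC-like cell. Ccl8 gave 8.51% and 8.26% of T-like cells at 3500 UMIs, close to its 12.3% and 11.3% in monocyte-like cells at 5300, and the level in NK-like cells was 18.0 and 23.6 CPM. Ccl7 and Ccl2 in the macrophage-like cells, by contrast, lay far above this level. Cells with both T cell and myeloid genes were 50.2% and 29.2% of T-like cells, 10.3% and 6.49% of macrophage-like cells, and 8.04% and 2.96% of monocyte-like cells. One T-like cell of the library labelled WT, with 77632 UMIs, held 427 of the 456 Ccl9 UMIs of its cluster. Their part in the levels was not tested beyond the counts without them given here.

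**Figure D4:**
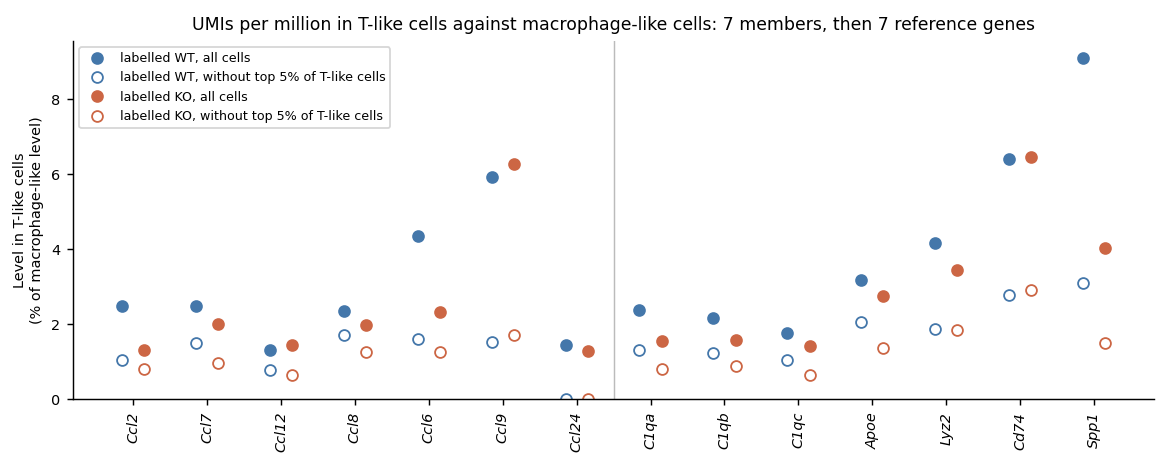
Level of each of the 7 chemokines and of 7 reference genes in T-like cells as a percentage of the macrophage-like level (vertical axis), for both libraries, with all T-like cells (filled) and without the 5% with most UMIs of the gene (open). The open points of the chemokines other than Ccl24 lie between 0.640% and 1.72%, beside those of the C1q genes, and Ccl24 is at 0.

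Within a cluster, cells rich in Ccl2 tended to be rich in Ccl7, and cells rich in Ccl6 in Ccl9. Over single cells thinned to one depth within the C1q cluster (121 and 125 cells), Pearson's r of Ccl2 and Ccl7 was 0.81 in both libraries. It was 0.76 and 0.70 in the Qpct cluster (163 and 193 cells), and 0.73 and 0.77 in the Cxcl3 cluster (149 and 26 cells). After thinning to 6900 UMIs, 90.7% and 86.8% of C1q cluster cells with Ccl2 also had Ccl7, against 53.8% and 36.8% of cells without Ccl2. Ccl6 and Ccl9, the other close pair and the one with the most alike promoters above, were at 0.68 and 0.55 in the C1q cluster, 0.67 and 0.58 in the Qpct cluster, and 0.71 and 0.68 in the Cxcl3 cluster.

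Ccl12 and Ccl8, also neighbours, were related in some clusters. Their r was 0.45 and 0.49 in the C1q cluster, but 0.24 and 0.14 in the Qpct cluster and -0.04 and -0.11 in the Cxcl3 cluster. After thinning, Ccl8 was found in 29 of 149 and 1 of 26 cells of the Cxcl3 cluster. Ccl12 was also tied to Ccl7, which Ccl11 separates from it, at 0.57 and 0.65 in the C1q cluster and 0.75 and 0.54 in the Qpct cluster. Ccl2 and Ccl12, which are not neighbours, were at 0.54 and 0.62 in the C1q cluster and 0.71 and 0.46 in the Qpct cluster, so that close ties were not limited to neighbours. Ccl8 and Ccl9 were at -0.22 and -0.27 in the C1q cluster and at 0.17 and 0.00 in the Qpct cluster. Ccl24, on chromosome 5, was between -0.15 and 0.18 with each of the others in the 3 clusters. The cells of one cluster share a library and free RNA and differ in depth, so these values are descriptions.

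**Figure D5:**
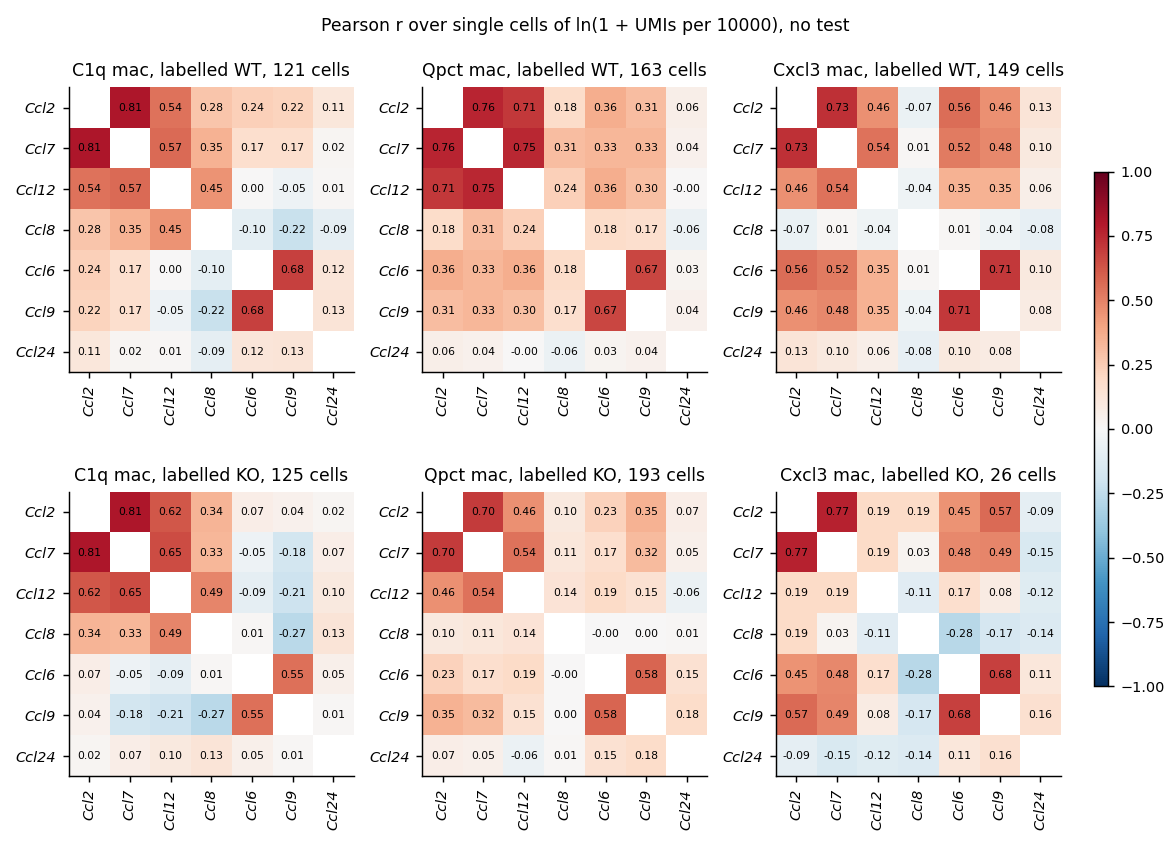
Pearson's r of ln(1 + UMIs per 10000) over single cells for the 21 pairs of chemokines in the C1q, Qpct and Cxcl3 clusters of both libraries. Cells under the thinning depth of each cluster were left out, and UMIs were not thinned. The pair Ccl2 and Ccl7 lies between 0.70 and 0.81 and the pair Ccl6 and Ccl9 between 0.55 and 0.71, while pairs with Ccl24 lie near 0.

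Over sums of 18 clusters in both libraries (36 sums, 10450 genes compared), the genes most like each member were found by Pearson's r of log2(CPM + 1). For Ccl2 these were Msr1, a scavenger receptor of macrophages (0.966), Cndp2 (0.963) and Ccl7 (0.957), and for Ccl7 Ccl2, Ccl12 (0.941) and Slc7a8 (0.926). Ccl12 was most like C1qb (0.944), Ccl7 and C1qc (0.937). Ccl6 was most like the lipoprotein receptor gene Lrp1 (0.959), Ccl9 (0.949) and Cd14 (0.943), and Ccl9 like Lgals3, which encodes galectin-3 (0.958), Ccl6 and Lilrb4a (0.945). Ccl8 had weaker matches, led by Snx27 (0.848), Fblim1 and Dtnbp1, as had Ccl24 with Gab1 (0.825), Vcan and Cxcl2. Sums share libraries and cluster identity, and those of clusters low in every myeloid gene weigh in each r.

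Of the receptors through which the members act, Ccr1 and Ccr2 had at least 100 UMIs in macrophage-like cells. Neither was past 2-fold in macrophage-like, monocyte-like or DC-like cells. Ccr2, the receptor of Ccl2, Ccl7 and Ccl12, was at 235 and 320 CPM in macrophage-like cells, a log2 ratio of 0.44 (0.35 to 0.53), and at 419 and 526 in monocyte-like cells. It was lowest among macrophage-like clusters in the C1q cluster, at 38.8 and 57.5, where Ccl8 was highest, and stood at 491 and 607 in the Qpct cluster. Ccr1, the receptor of Ccl6 and Ccl9, was at 294 and 212 CPM, -0.47 (-0.57 to -0.37), and was highest in the Cxcl3 cluster, at 497 and 667, the cluster in which both ligands were highest. Ccr3, through which Ccl24 acts, had 2 and 1 UMIs in macrophage-like cells, and Ccr8 had 3 and 1.

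Among 6 other CC chemokines, 1 of the 3 with 100 UMIs in monocyte-like cells was past 2-fold. This was Ccl4 at 1023 and 214 CPM, a log2 ratio of -2.26 (-2.39 to -2.13). In macrophage-like cells 0 of 4 were past 2-fold, with Ccl4 at 678 and 425 CPM, -0.68 (-0.74 to -0.61) and -1.05 without the top 5% of cells, and Ccl3 at 359 and 304. Of 10 cytokines that induce or restrain chemokines, 4 had 100 UMIs in macrophage-like cells, and 0 were past 2-fold. Il1b was at 322 and 453 CPM there and Tnf at 30.4 and 37.7. In monocyte-like cells Tnf was at 81.7 and 38.6 CPM, -1.08 (-1.42 to -0.76), the one cytokine of 3 past 2-fold, but at -0.28 (-0.87 to 0.28) without the top 5% of cells. Il4 gave 0 UMIs in these classes and Il13 1 UMI in the macrophage-like cells of each library. Of other cell types, the 3 fibroblast markers measured were at 0 UMIs in macrophage-like, monocyte-like and DC-like cells. The 8 neutrophil markers each had at least 1 UMI in these classes, as they had in T-like cells. They summed to 415 and 67.4 CPM in macrophage-like cells, 1095 and 512 in monocyte-like cells and 264 and 98.4 in T-like cells. These sums were lower in the library labelled KO, as most members were, and their part was not tested.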

How the data were processed

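Living CD45.2+ cells of B16-OVA tumors were captured with the Chromium 3′ kit, and per the labels Cell Ranger with the mm10 reference was the authors' aligner and counter. The deposited table, although described as raw counts, holds natural log values, ln(1 + UMIs scaled to 10000 per cell). Whole UMIs were recovered by dividing expm1 of each value by the smallest nonzero expm1 value of its cell, and all values came out whole within a tolerance of 0.01. Each cell already met the study's filter of at least 300 UMIs, 100 genes and at most 5% mitochondrial UMIs, so 0 cells were removed. No doublets were removed.

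Cells were clustered with Seurat 5.3.0 in R 4.3.3 (13 principal components, resolution 0.8, depth regressed out, 14 genes, the members and receptors, left out of the variable genes), and 2262 myeloid cells were clustered again. This gave 15 and 12 clusters, and classes were made from the cluster names. Outside the classes were 2 myeloid clusters, one T-like and one unnamed, and 2 unnamed lymphoid ones. Of the cells of these myeloid clusters 70.4% to 95.2% held both T cell genes (at least 3 Cd3 UMIs) and myeloid genes (at least 5 UMIs). Markers named a cluster with at least 3 of them detected. UMIs were summed per cluster and library, as CPM. Ratios had 0.5 UMIs added. Intervals are Poisson, Clopper-Pearson or conditional binomial at 95% (SciPy 1.17.1) and were tested on simulated data. Precision is set by the 1 library per genotype: depth per cell was 9888 and 6946 UMIs at the median. Thinning drew UMIs without replacement down to the tenth percentile of depth in a class, rounded down to a step of 100 UMIs.

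The genes named are all 7 members, their receptors, the other CC chemokines with most UMIs, cytokines, 7 reference genes, and the 3 genes most like each member, over genes of at least 100 UMIs and clusters of at least 20 cells in each library. Members and lists were chosen with earlier results of these data known. The grouping of clusters into classes, the limits of 10 UMIs, 5% of cells, 40000 UMIs and 20 C1q UMIs, the Qpct cluster counted as monocyte-like and the motif letters were chosen after values had been seen. Values without the top 5% replaced values without the top 3 cells, under which Ccl7 in the Cxcl3 cluster differed more. A first clustering of macrophage and monocyte cells alone was replaced after its cluster names and leading genes were seen, and is kept as an alternative. The alternatives cover clustering, doublets, marker gates (with Lyz2 for monocytes), scaling, thinning and the fold limit. Ackr2 and Ccl11 were not analysed here, and some items of these lists are not reported here.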

Additional observations from a re-analysis of the deposited data

Results flagged for a closer look

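Among myeloid clusters with at least 100 UMIs of the gene, 6 of the members had ratios of opposite sign in different clusters. The intervals of each pair lay on either side of 0. Ccl12, under that limit in the nonclassical monocyte-like cluster, was at 1.40 (0.74 to 2.11) there, on 27 and 66 UMIs. Of the 66, 56 came from 1 cell, and without the top 5% of cells its ratio was -1.62. None of these differences between clusters was tested, since each genotype has 1 library. For Ccl8 the nonclassical monocyte-like cluster (log2 ratio 3.76) and the Hp cluster (-5.34) stood 9.10 apart, but without the 5% of cells with most Ccl8 they were at 0.04 and -0.26, and most UMIs of each higher level came from 1 C1q-rich cell.

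Ccl2 was at 0.75 in the nonclassical monocyte-like cluster and -4.24 in the mature DC-like cluster, 4.99 apart, and at 0.37 and -0.84 without the top 5% of cells. Ccl7 was at 0.58 and -4.16 in the same clusters, 4.74 apart, and at -0.41 and -1.48 without them, so that its signs no longer differed.

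The other 3 pairs kept opposite signs without the top 5% of cells. Ccl6 was higher in the library labelled KO in cDC2-like cells (0.41) and lower in the C1q cluster (-1.15), 1.56 apart, and at 0.56 and -1.44 without the top cells. Ccl9 was at 0.52 and -0.81 in these clusters, 1.33 apart, and at 0.74 and -0.72 without them. Ccl24 was at 2.44 in the heat shock cluster and -2.78 in the C1q cluster, 5.22 apart, and at 3.16 and -1.63 without them, on 26 and 122 UMIs in the first and 90 and 13 in the second.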

How the results depend on the processing

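Each class ratio was recomputed under 17 other settings. Ccl2, Ccl7, Ccl6 and Ccl9 in macrophage-like cells kept their sign in 17 of 17, between -1.23 and -0.46, -1.93 and -0.68, -1.45 and -0.59, and -1.17 and -0.45. So did Ccl2 (-1.52 to -0.55), Ccl7 (-3.69 to -0.99), Ccl12 (-3.34 to -1.77) and Ccl9 (-0.80 to -0.04) in monocyte-like cells. Ccl8 and Ccl12 in macrophage-like cells kept it in 15 and 13 of 17 (-2.59 to 0.97 and -2.77 to 0.29).

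The sign turned for Ccl24 in monocyte-like cells with resolution 0.4 (1.45) or 1.2 (0.23), 20 components (0.43), no depth regression (1.61), members kept as variable genes (1.54), another seed (0.12), macrophage and monocyte cells clustered alone (0.27) and Qpct cells counted as monocyte-like (1.57). Ccl24 in macrophage-like cells turned without depth regression (-0.23), with members kept (-1.03) and with Qpct cells counted as monocyte-like (-1.11). Ccl8 in monocyte-like cells turned without mixed cells (1.53) and without cells over 40000 UMIs (0.70), and Ccl7 in DC-like cells with marker gates (0.02). Ratios near 0 also changed sign: Ccl6 in monocyte-like cells kept its sign in 8 of 17 (-0.64 to 0.12), and Ccl9 and Ccl6 in DC-like cells in 13 and 15 of 17 (-0.40 to 0.27 and -0.31 to 0.47).

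The members 2-fold lower in macrophage-like cells were 3 at resolution 0.4, with members kept and with Qpct cells moved, 2 with 20 components or with macrophage and monocyte cells alone, 4 without depth regression or at 1.5-fold, and 1 without the top 5%. Those 2-fold higher were 0 at resolution 0.4, without depth regression, with members kept, after thinning, with macrophage and monocyte cells alone, without the top 5% and with Qpct cells moved, and 2 at 1.5-fold. In monocyte-like cells 2 were lower at resolution 0.4 or without depth regression, and 3 with 20 components, members kept, no mixed cells, per-cell CPM, thinning, equal cluster mix, no cells over 40000 UMIs or Qpct cells moved. The number higher was 1 at resolution 0.4, without depth regression, with members kept, without mixed cells and with Qpct cells moved. In DC-like cells 1 was lower without mixed cells, without the top 5% or without C1q-rich cells, and 0 with marker gates, and 1 was higher after thinning or with macrophage and monocyte cells alone. All 7 members were highest in the macrophage-like class in both libraries. That held for 2 at resolution 0.4 or without depth regression, 4 with 20 components, members kept or Qpct cells moved, and 3 with marker gates or macrophage and monocyte cells alone, where 3 were highest in a macrophage-like or monocyte-like class. Class names moved between these settings, and the cause of each change was not tested.

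No paired analysis was possible because each genotype has 1 library and no result comes from a test. Depth limits Ccl24 and Ccl8 outside macrophage-like cells, where a few cells hold most UMIs, and a difference between mice cannot be told apart from one between libraries.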
